A study of Saccharomyces cerevisiae with 4 samples.

Results

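The genes for the RNA polymerases of budding yeast and for their general transcription factors were followed on 4 two-colour arrays. They were picked by gene symbol, as probes with 1 platform symbol that were measured on every array. The rule used no measured value, but the set was chosen with earlier results of these data known. This gave 57 genes on 63 probes, out of 3099 named genes and 5946 features in all. Of the 92 genes that the usual subunit lists hold under these symbols, 35 had no usable value, among them RPA135, RPB3, RPB7, RPC40, RPC82, the mitochondrial polymerase gene RPO41, the TBP gene SPT15 and the TFIIB gene SUA7. RPB5 was among them because its probe had no value on any array. Coverage was 6 of 7 for polymerase I, 5 of 7 for polymerase II, 9 of 10 for polymerase III and 9 of 15 for Mediator. It was 5 of 14 for TFIID, 3 of 8 for TFIIH and 2 of 6 for TFIIIC, so the last 3 are seen through few subunits.

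Each array held RNA of both strains, hybridised in competition. Both were W303-1A transformants, one with the cadmium-transporting P-type ATPase CadA of Listeria monocytogenes and the other with its mutant D398A. Cultures grew at 30 °C to an OD600 of 0.4 in SD minimal medium with all amino acids and adenine, and then met 1 µM cadmium for 1 h. All RNA thus came from cadmium-exposed cells. Dyes were swapped between arrays: Cy5 marked the CadA sample on arrays 1 and 3, and Cy3 did on arrays 2 and 4. The promoter behind the transporter and the number of cultures are not given in the labels, so the p-values below take in array-to-array spread alone, which could be technical. Fewer transcripts per cell and less of a labelled cDNA cannot be told apart in these ratios.

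The nuclear RNA polymerases divide the work of transcription in yeast. Polymerase I makes the large ribosomal RNA precursor, polymerase II makes messenger RNA, and polymerase III makes transfer RNA and 5S ribosomal RNA. They share a set of small subunits and have counterparts in the other subunits. Each is brought to its promoters by its own factors: Rrn3, the core factor and the upstream activating factor for polymerase I, TFIIIC and TFIIIB for polymerase III, and TFIIA to TFIIH with Mediator for polymerase II. Polymerase I and III output is known to follow growth rate and to fall in stress.

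The table of log ratios does not say which dye is its numerator, nor whether the swapped arrays had already been turned round. Arrays of opposite dye orientation correlated between 0.009 and 0.348 across probes, all above 0, and the pairs of like orientation stood at 0.175 and -0.016. Both readings are therefore given for every group. In turned signs, arrays 1 and 3 have their sign reversed, so that a strain difference in an unturned table runs 1 way. KAR2, the main chaperone of the endoplasmic reticulum, then read 0.28, 0.80, 0.85 and 2.23 on arrays 1 to 4, and its side is called positive, with no strain named for it. Its mean of 1.04 ± 0.84 did not pass limma's adjustment either (adjusted p = 1.00). In deposited signs the values stand as in the table. If the table was not already turned, a strain difference cancels in a deposited mean and a dye difference stays. If it was already turned, the same holds for the means in turned signs. The deposited means, p-values and sign counts below can thus reflect dye or labelling instead of strain, and this was not tested. All values are log2 ratios under the assumption of base 2. Array spreads differed: the SD of all probes was 0.872 and 0.952 on arrays 1 and 2 and 0.46 and 0.475 on arrays 3 and 4.

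In turned signs the genes of the transcription machinery had means on both sides of 0. Of the complexes with 3 or more measured genes, 2 kept 1 side over all arrays in their medians: the polymerase I initiation factors at -0.25, -0.24, -0.40 and -0.05, and TFIIH at 0.07, 0.22, 0.02 and 0.10. Neither side held throughout: the median of TFIIH gene means was -0.03 after print blocks were centred, and that of the polymerase I factors was 0.06 without array 3 and 0.02 as deposited. None of the 57 genes passed limma's test with Benjamini-Hochberg adjustment over all 5946 features, where 0% of features passed. The adjusted p was 1.00 for each of them. At an unadjusted p below 0.05 the count was 0 genes, against 1.88% of all features, and it was also 0 with ordinary statistics per gene. Gene means ran from -0.59 to 0.55 with a median of 0.03, against -0.01 over all features. A positive mean was seen for 32 of the 57 genes (background 47.4%). No gene kept 1 sign on all 4 arrays, where 6.98% of all features did. The median SD over the 4 arrays was 0.73 for these genes and 0.60 for all features, and no gene mean reached 0.73 in size. That SD is the spread of single arrays, and the SE of a mean of 4 arrays is smaller.

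**Figure D1:**
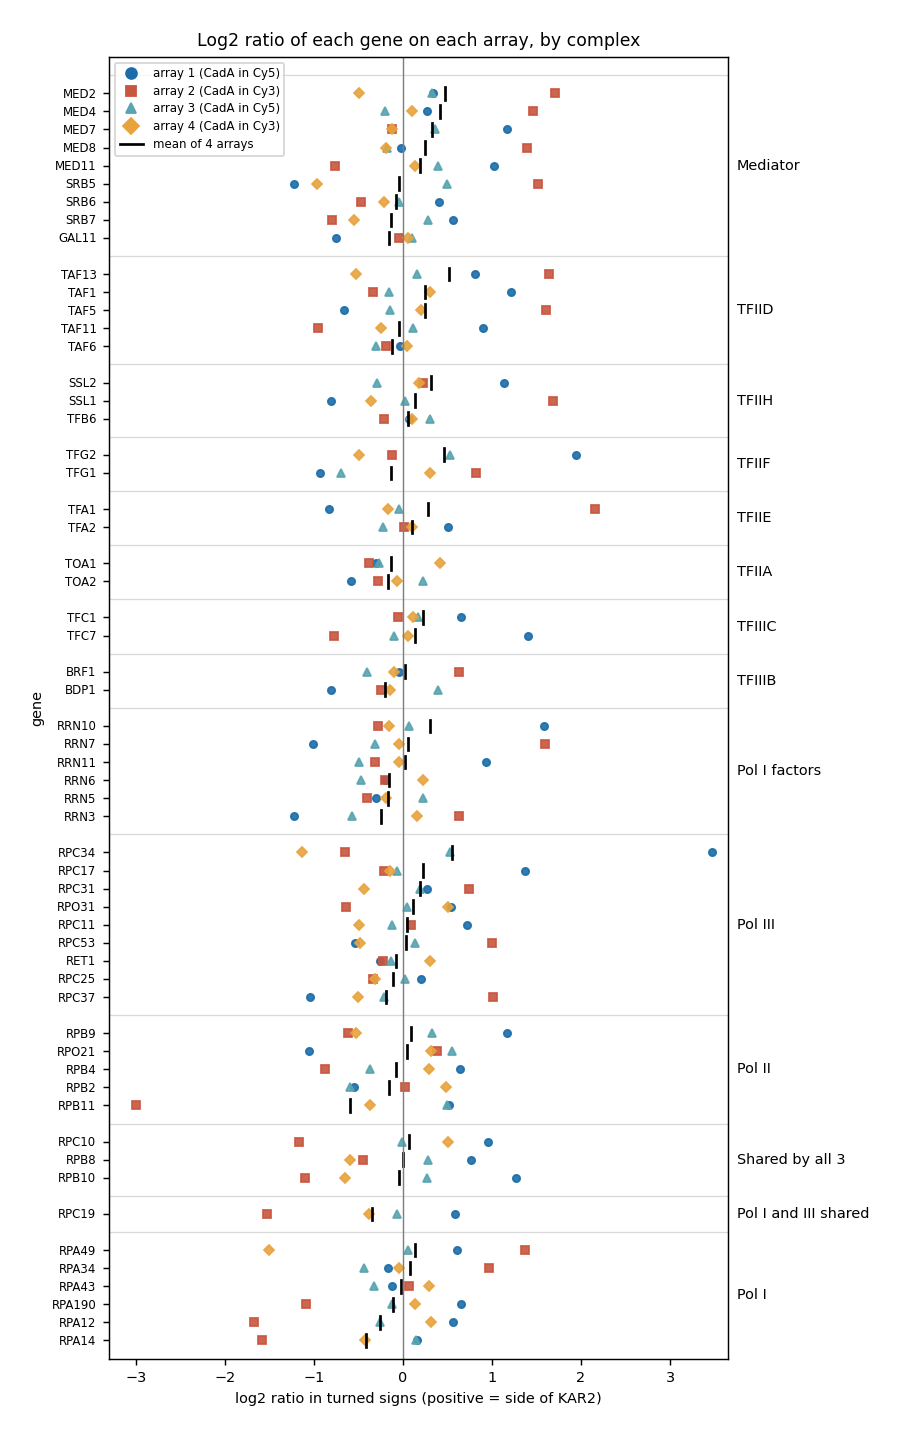
Log2 ratio of each of the 57 genes on arrays 1 to 4 in turned signs (x axis), with genes grouped by complex (y axis), symbols for arrays and a black bar for the mean of 4 arrays. Every gene has arrays on both sides of 0, and the points farthest out, RPC34 at 3.47 and RPB11 at -3.00, come from arrays 1 and 2.

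Polymerase I genes had a median of -0.06 in turned signs, and 2 of 6 had a positive mean. RPA190, the largest subunit, read 0.65, -1.09, -0.12 and 0.13 on arrays 1 to 4, a mean of -0.11 ± 0.73 (SD, n = 4). RPA49, which aids initiation and elongation, had the highest mean at 0.14 ± 1.22, from 0.61, 1.37, 0.06 and -1.50. RPA14, a stalk subunit, had the lowest at -0.42 ± 0.82, from 0.16, -1.58, 0.15 and -0.43. In each of these 3 genes the arrays lay on both sides of 0, and array 2 was beyond 1 in size. The genes of the polymerase I initiation factors had a median of -0.07. RRN10, of the upstream activating factor, was highest at 0.30 ± 0.86, with 1.58 on array 1 and between -0.28 and 0.07 on the others. RRN3, which links the enzyme to the promoter, was lowest at -0.25 ± 0.81, from -1.22, 0.63, -0.57 and 0.16.

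Polymerase II genes had a median of -0.08, with 2 of 5 positive means. RPO21, which encodes the largest subunit with its repeated C-terminal domain, read -1.06, 0.38, 0.55 and 0.31 (mean 0.04 ± 0.74). Array 1 opposed the other 3 there, and without it the mean was 0.41. RPB2, the second largest subunit, read -0.55, 0.02, -0.59 and 0.48 (mean -0.16 ± 0.51). RPB9, a small zinc-binding subunit needed for accurate start sites, was highest at 0.09 ± 0.84. RPB11, part of the assembly platform, was lowest of all 57 genes at -0.59 ± 1.66, with -3.00 on array 2 and 0.21 as its mean without that array. The sign of RPB11 therefore rested on array 2.

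Polymerase III genes had a median of 0.05, and 6 of 9 had a positive mean. RPO31, the largest subunit, read 0.54, -0.64, 0.04 and 0.51 (mean 0.11 ± 0.55). RET1, the second largest, stayed close to 0 at -0.26, -0.22, -0.14 and 0.30 (mean -0.08 ± 0.26). RPC34, which contacts TFIIIB at the promoter, had the highest mean of all 57 genes at 0.55 ± 2.07. Its values were 3.47, -0.65, 0.53 and -1.13, and without array 1 the mean was -0.42. RPC37, of the termination heterodimer, was lowest at -0.19 ± 0.87, from -1.05, 1.01, -0.21 and -0.51. Its partner RPC53 read -0.54, 1.00, 0.14 and -0.48, so both were high on array 2 and low on arrays 1 and 4. That pattern was not particular to the pair. SSL1 of TFIIH read -0.81, 1.69 and -0.36 on arrays 1, 2 and 4, and SRB5 of Mediator -1.23, 1.52 and -0.97. RPC37 lay in print block 40 and RPC53 in blocks 42 and 44, and the part of print position was not tested. Of the subunits common to all 3 enzymes, RPB8 averaged 0.00 ± 0.64, RPB10 -0.05 ± 1.05 and RPC10 0.07 ± 0.92. TFIIIC had a median of 0.18 over TFC1 and TFC7, whose means were 0.22 ± 0.30 and 0.14 ± 0.91. TFC1 read 0.65, -0.06, 0.17 and 0.11 on arrays 1 to 4. The TFIIIC median was -0.10 without array 1, and 0.09 with only the first probe of TFC1. The TFIIIB genes BRF1 and BDP1 averaged 0.02 ± 0.44 and -0.20 ± 0.49.

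Of the general factors of polymerase II and Mediator, all but TFIIA had positive medians in turned signs, but the side of several rested on 1 array. TFIID stood at 0.25 over 5 genes, Mediator at 0.19 over 9 and TFIIH at 0.13 over 3. TAF13, a histone-fold subunit of TFIID, was highest at 0.52 ± 0.92, with 0.81, 1.64, 0.16 and -0.53 on arrays 1 to 4. TAF6, another histone-fold subunit, was lowest at -0.12 ± 0.15, from -0.03, -0.19, -0.30 and 0.04. TAF13 was above 0 on arrays 1 to 3 and TAF6 on array 4 alone. The TFIID medians of single arrays were 0.81, -0.19, -0.15 and 0.04, so array 1 alone lay clearly above 0. The median of gene means was -0.07 without array 1. After print blocks were centred it was 0.02, and the mean of TAF13 was 0.04. In Mediator, which carries signals from activators to polymerase II, the tail subunit gene MED2 was highest at 0.47 ± 0.91, from 0.34, 1.71, 0.32 and -0.50. Without array 2 its mean was 0.06. GAL11, another tail subunit and the target of several activators, was lowest at -0.16 ± 0.40, from -0.75, -0.05, 0.10 and 0.06. In TFIIH the translocase gene SSL2 read 1.13, 0.22, -0.29 and 0.18 (mean 0.31 ± 0.59). TFB6, which releases Ssl2 from TFIIH, read 0.07, -0.21, 0.30 and 0.10 (mean 0.06 ± 0.21). TFIIA (TOA1 -0.13, TOA2 -0.17), TFIIE (TFA1 0.28, TFA2 0.10) and TFIIF (TFG1 -0.13, TFG2 0.46) had 2 measured genes each. The TFIIE median of 0.19 was -0.11 without array 2.

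**Figure D2:**
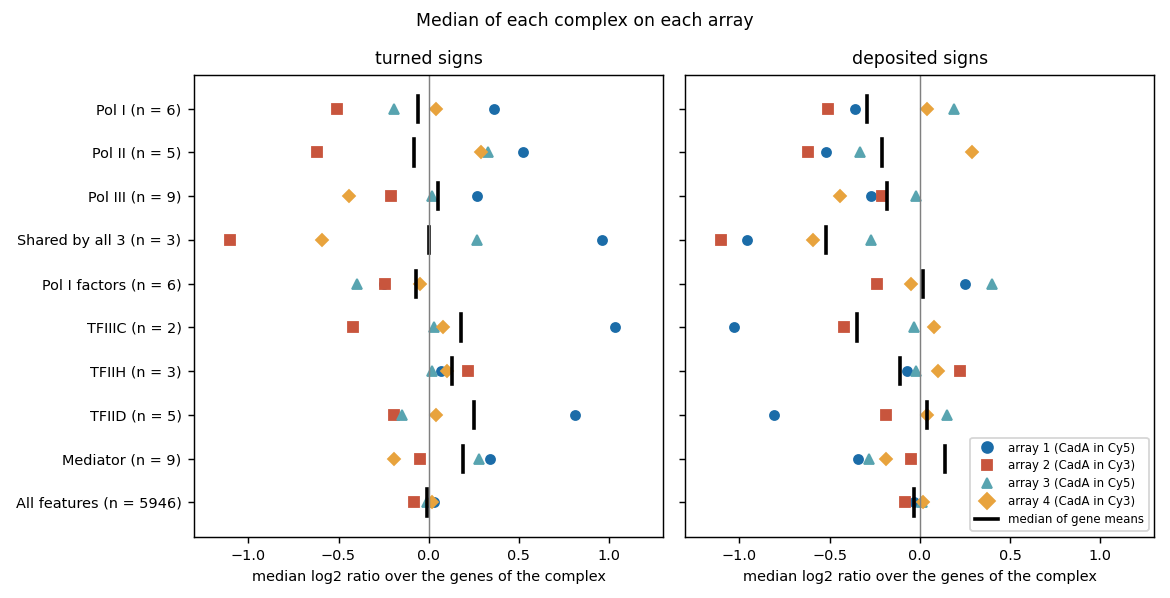
Median log2 ratio over the genes of each complex (x axis) on each array, in turned signs on the left and as deposited on the right, with a black bar for the median of the gene means. The 3 subunits common to all polymerases run from -1.10 to 0.96 in turned signs and from -1.10 to -0.27 as deposited, while the medians of all features stay near 0.

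In deposited signs more genes kept 1 sign from array to array, among all features and among these genes, and the polymerase subunits leaned to the negative side. A positive mean was seen for 25 of the 57 genes (background 46.5%). Of the 24 subunit genes of the nuclear polymerases, 7 had a positive and 17 a negative mean, with a median of -0.24 against -0.03 over all features. The median was negative without any 1 array, at -0.10, -0.16, -0.39 and -0.39 without arrays 1 to 4. No gene passed the adjustment in limma (smallest adjusted p = 0.42, background 0%). An unadjusted p below 0.05 was reached by 10 of the 57 genes, or 17.5%, against 11.7% of all features. Of these, RPB8, RPB9, RPB10, RPB11, RPC34, SRB7 and TFG2 were the 7 negative genes (background 5.65%), and RRN3, RRN7 and TFG1 the 3 positive ones (background 6.04%). The sign was negative on all 4 arrays for 12 genes, or 21.1%, where 12.3% of all features were. It was positive on all 4 for 5 genes, or 8.77%, where 12.4% were. The share with 1 sign on all arrays was 29.8% against 24.8%. These shares were not tested against each other, and the named genes were no random draw. Strain and dye cannot be told apart in them.

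Of the 5 subunits shared by the 3 nuclear polymerases, 3 were measured, and all 3 had negative deposited means that did not pass the adjustment. RPB8 read -0.76, -0.45, -0.28 and -0.59 on arrays 1 to 4 (mean -0.52 ± 0.20). RPB10, a small zinc-binding subunit, read -1.27, -1.10, -0.27 and -0.65 (mean -0.82 ± 0.45). Both lay below 0 on every array. RPC10, the other small zinc-binding subunit, also called Rpb12, read -0.96, -1.17, 0.01 and 0.51 (mean -0.40 ± 0.80), so arrays 3 and 4 were not low, and its mean was -0.14 without array 2. The median of the 3 gene means was -0.52 as deposited and 0.00 in turned signs. The deposited medians of these 3 genes on the 4 arrays averaged -0.73 ± 0.37.

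In polymerase II the 2 largest subunits had positive deposited means and the 3 smaller measured ones negative means, with a median of -0.21 over the 5 genes, or 0.01 without array 2. For RPB4 the side rested on 1 array, and RPO21 fell close to 0 without array 1. RPB9 was below 0 on all arrays at -1.17, -0.62, -0.33 and -0.53 (mean -0.66 ± 0.36). RPB11 was also below 0 throughout, at -0.52, -3.00, -0.49 and -0.37 (mean -1.10 ± 1.27). Without array 2 the RPB11 mean was -0.46. RPB2 went the other way at 0.55, 0.02, 0.59 and 0.48 (mean 0.41 ± 0.26). RPO21 averaged 0.30 ± 0.66 with array 3 at -0.55, and 0.04 without array 1. The stalk gene RPB4 averaged -0.21 ± 0.64, and 0.01 without array 2.

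RPC34 of polymerase III had the lowest deposited mean of all 3099 named genes, at -1.44 ± 1.38. Its values were -3.47, -0.65, -0.53 and -1.13, all below 0, and the mean without array 1 was -0.77. RPC25, a stalk subunit, was low by less on every array, at -0.20, -0.34, -0.02 and -0.31 (mean -0.22 ± 0.15). RPC37 averaged 0.44 ± 0.74, or 0.24 without array 1. RPC53, its partner, averaged 0.23 ± 0.66, or -0.03 without array 2. The median of the 9 polymerase III genes was -0.18. It was below 0 on every array, with -0.27, -0.21, -0.02 and -0.44, but the median of gene means was -0.05 without array 1 and -0.07 after print blocks were centred.

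Polymerase I genes had a median of -0.29 as deposited, but the arrays divided, with medians of -0.36 and -0.51 on arrays 1 and 2 and 0.19 and 0.04 on arrays 3 and 4. Without array 2 the median of gene means was -0.07. RPA14 read -0.16, -1.58, -0.15 and -0.43 (mean -0.58 ± 0.68, or -0.25 without array 2). Its stalk partner RPA43, which binds Rrn3, lay above 0 on each array at 0.12, 0.07, 0.33 and 0.29 (mean 0.20 ± 0.13). RRN3 itself was positive throughout at 1.22, 0.63, 0.57 and 0.16 (mean 0.64 ± 0.44). RRN7, the TFIIB-related subunit of the core factor, averaged 0.72 ± 0.73 with array 4 at -0.04. RRN10 was negative throughout at -1.58, -0.28, -0.07 and -0.16 (mean -0.52 ± 0.71, or -0.17 without array 1).

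Among the factors of polymerase II, single subunits of 1 complex lay on opposite sides as deposited. TFG1, the large subunit of TFIIF, read 0.93, 0.82, 0.70 and 0.30 (mean 0.69 ± 0.28). TFG2, its partner, read -1.94, -0.12, -0.53 and -0.50 (mean -0.77 ± 0.80), or -0.38 without array 1. In TFIID, TAF5 was positive on all arrays at 0.66, 1.61, 0.15 and 0.20 (mean 0.66 ± 0.68), and its mean was 0.34 without array 2. TAF11 was negative on all at -0.90, -0.95, -0.11 and -0.25 (mean -0.55 ± 0.43). In Mediator the middle subunit genes SRB7 and MED7 were negative on every array. MED4, another middle subunit gene, was positive on 3 arrays (mean 0.37 ± 0.75, or 0.01 without array 2). SRB7 read -0.56, -0.80, -0.28 and -0.55 (mean -0.55 ± 0.21). MED7 read -1.17, -0.12, -0.36 and -0.12 (mean -0.44 ± 0.50, or -0.20 without array 1). The median of the 9 Mediator gene means was 0.14, whereas the Mediator medians of single arrays were all below 0 and averaged -0.21 ± 0.13, so no side can be given for the complex.

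Several other groups changed side between the readings. TFIIIC had a deposited median of -0.35, with TFC1 at -0.19 ± 0.33 and TFC7 at -0.51 ± 0.72, and -0.12 without array 1. TFIIA stood at 0.08 as deposited, with TOA1 at 0.15 ± 0.36 and TOA2 at 0.00 ± 0.39. TFIIIB stood at 0.12, where its turned median was -0.09. TFIIF had a deposited median of -0.04 and TFIIH of -0.11, both positive in turned signs, and both were positive without array 1, at 0.11 and 0.23. TFIIE at 0.33 and TFIID at 0.04 were positive in both readings, but TFIIE was 0.09 and TFIID -0.25 without array 2.

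**Figure D3:**
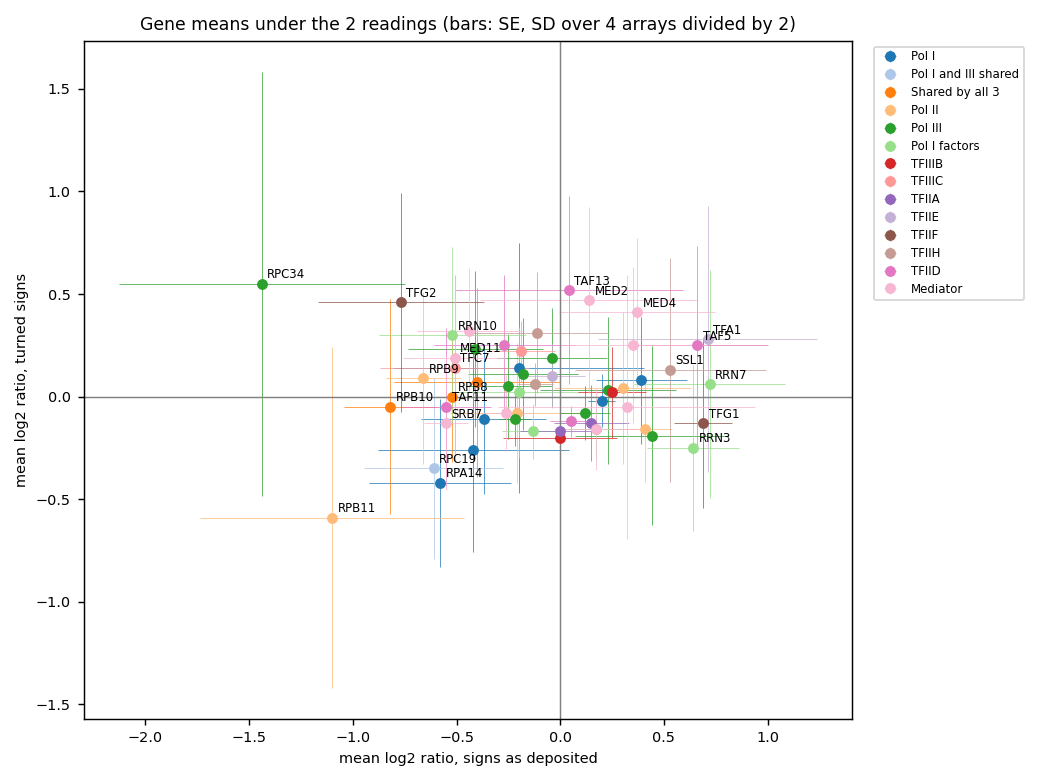
Mean log2 ratio of each gene as deposited (x axis) and in turned signs (y axis), coloured by complex, with bars for the SE over 4 arrays. Deposited means spread from -1.44 (RPC34) to 0.72 (RRN7) and turned means from -0.59 (RPB11) to 0.55 (RPC34).

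Whether 2 partners lie on opposite sides of 0 on an array does not depend on the reading. Among 10 pairs of measured partner subunits, set up with the values known, 2 pairs were opposite on all 4 arrays. Over all 1596 pairs of the 57 genes the share was 8.27%, and 10 chosen pairs are too few to read a difference from it. For TFG1 and TFG2 the gap was 2.88, 0.94, 1.24 and 0.80 on arrays 1 to 4. For the polymerase I stalk genes RPA43 and RPA14 it was 0.28, 1.65, 0.48 and 0.73. The size of the gap in the mean, and for TFIIF its direction, differed between the readings. As deposited TFG1 exceeded TFG2 by 1.46 ± 0.96, and in turned signs the difference was -0.59 ± 1.82. For RPA43 over RPA14 it was 0.78 ± 0.60 as deposited and 0.40 ± 0.98 in turned signs. For the polymerase III pair RPC53 and RPC37 the gaps on arrays 1 to 4 were 0.52, 0.00, 0.34 and 0.03.

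Counterparts across the 3 enzymes were set side by side as deposited. The largest subunits did not share a side, with RPA190 at -0.37 ± 0.60, RPO21 at 0.30 ± 0.66 and RPO31 at -0.18 ± 0.53. Without array 2, RPA190 stood at -0.13 and RPO31 at -0.02. The second largest were RPB2 at 0.41 ± 0.26 and RET1 at 0.12 ± 0.24. The small zinc-ribbon subunits were all negative in the mean, RPA12 at -0.42 ± 0.92, RPB9 at -0.66 ± 0.36 and RPC11 at -0.25 ± 0.42. RPB9 alone of these 3 was negative on every array, whereas the mean of RPA12 was 0.00 without array 2 and that of RPC11 -0.10 without array 1. The assembly platform genes RPC19 and RPB11 were both negative in the mean, at -0.61 ± 0.67 and -1.10 ± 1.27, and at -0.30 and -0.46 without array 2. The TFIIB-like factors RRN7 and BRF1 were both above 0 in the mean, at 0.72 ± 0.73 and 0.25 ± 0.33, and at 0.43 and 0.12 without array 2. The other positions were mixed. Among stalk genes RPA43 stood at 0.20 ± 0.13, against RPA14 at -0.58 ± 0.68, RPB4 at -0.21 ± 0.64, RPC25 at -0.22 ± 0.15 and RPC17 at -0.41 ± 0.65. Among the TFIIF-like heterodimers TFG1, RPC37, RPA34 (0.39 ± 0.44) and RPC53 had positive means, and TFG2 and RPA49 (-0.20 ± 1.21) negative ones. In the TFIIE-like module TFA1 at 0.71 ± 1.06 opposed RPC34 at -1.44 ± 1.38, while TFA2 and RPC31 both stood at -0.04. In turned signs the same 3 zinc-ribbon genes stood at -0.26, 0.09 and 0.05, and RRN7 and BRF1 at 0.06 and 0.02.

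**Figure D4:**
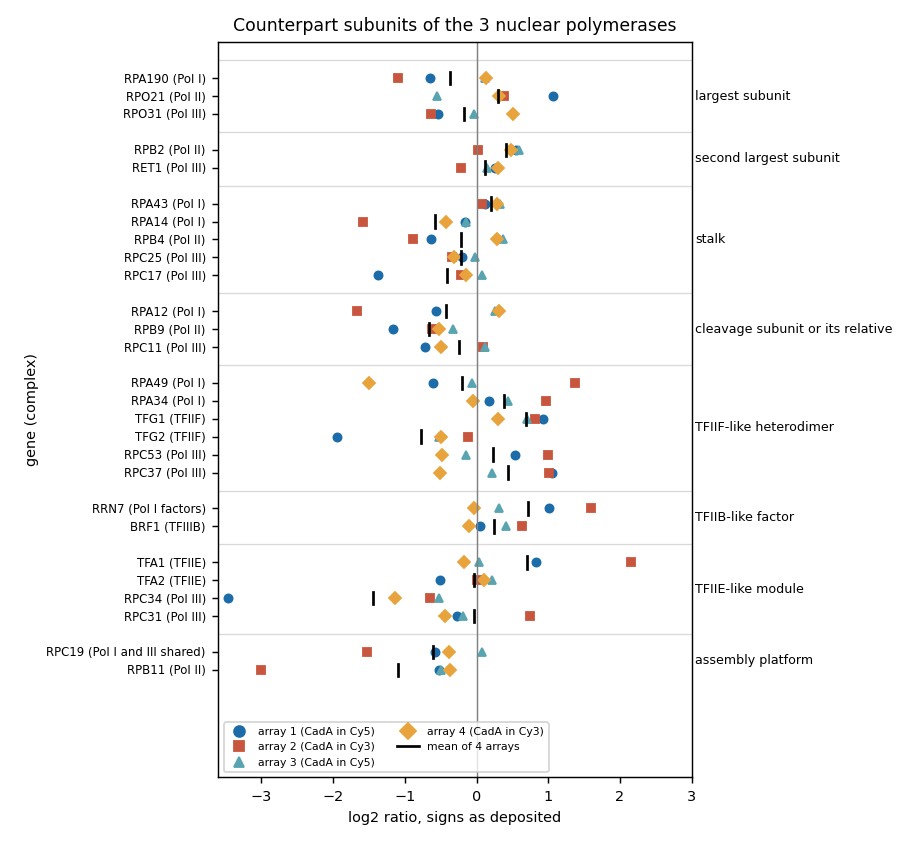
Log2 ratio as deposited (x axis) of counterpart subunits of polymerases I, II and III and of related factors (y axis), with symbols for arrays and a black bar for the mean of 4 arrays. RPA14, RPB9, RPB11, RPC25, RPC34 and TFG2 have every array below 0, and RPB2, RPA43 and TFG1 every array above it.

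Gene length moved with the deposited values. Across the 57 genes the deposited mean correlated with log2 gene length at Pearson r = 0.47 (Spearman rho 0.53), and the r of single arrays was 0.35, 0.31, 0.28 and 0.38. The same relation held over 3098 named genes with r = 0.29 (rho 0.32), and its sign was the same on all 4 arrays, in both dye orientations. In turned signs r was 0.08 across the 57 genes and 0.10 across named genes. Of the 12 genes that were negative on all arrays, 10 were shorter than 1000 bp, or 83.3%, against 59.1% of the 372 named genes of that kind and 42.4% of all named genes. Of the 5 that were positive on all arrays 1 was that short, against 12.8% of named genes of that kind. For the 29 genes under 1000 bp the median deposited mean was -0.26, with 20 negative (69.0%, against 68.1% of named genes under 1000 bp). For the 11 of 2000 bp or more it was 0.17. Genes are not independent replicates, the arrays are shared by all points, and the part of length in the values of the small subunits was not tested. The length classes were chosen after the values were seen.

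**Figure D5:**
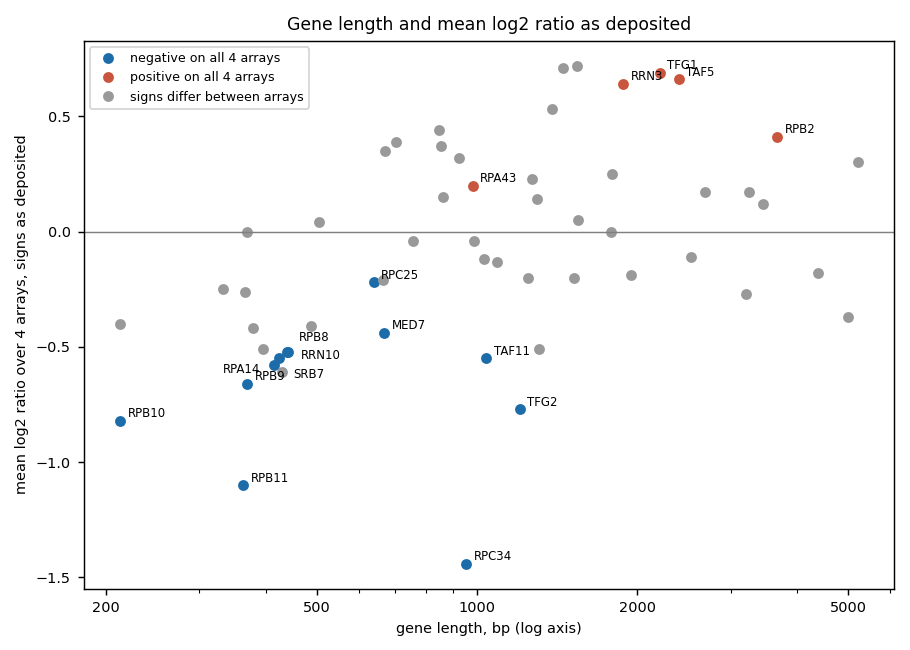
Mean log2 ratio over 4 arrays as deposited (y axis) against gene length on a log axis (x axis) for the 57 genes, coloured by whether the sign was the same on all arrays. The genes negative on all arrays lie mostly under 1000 bp, and those positive on all arrays mostly above it.

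Print position was a second property that the arrays carry. The 48 print blocks held between 10.8% (array 1) and 38.5% (array 2) of an array's variance. Array 2 is also the array on which the side of several genes above rested. After each block was centred, 14 of the 17 genes with 1 sign on all arrays as deposited kept it, and 23 genes in all had 1 sign. No share of all features after centring is given here, so the count of 23 has no background beside it. After centring the deposited median of the 24 polymerase subunit genes was -0.28, and r with length 0.52. The deposited median of all 57 genes went from -0.12 to -0.03. Several complexes changed side: TFIIH went from -0.11 to 0.13, TFIIF from -0.04 to 0.11 and TFIID from 0.04 to -0.20. Mediator went from 0.14 to -0.03 and the polymerase I factors from 0.02 to -0.04, while the other complexes kept their side. In turned signs 4 of the 10 medians compared below changed sign with centring, as did 10 of the 34 gene means given on every array. The turned TFIID median of 0.25 became 0.02.

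More than 1 probe was present for 6 genes, which shows how far a gene value can be trusted. The probes of RPC19 gave deposited means of -0.54 and -0.68, and those of RPC53 gave 0.32 and 0.14. The probes of RPC10 gave -0.72 and -0.08. In these 3 genes the probes shared a side. For GAL11 the deposited means were -0.25 and 0.58, for RRN5 -0.48 and 0.23, and for TFC1 0.04 and -0.43, each pair on opposite sides. In turned signs the probe means of RPC10 were -0.20 and 0.34. On single arrays, in either reading, the probes of GAL11, RRN5 and TFC1 had opposite signs on 3 of 4 arrays and those of RPC10 on 2. Averaged over probes, RPC19 read 0.58, -1.53, -0.07 and -0.38 in turned signs (mean -0.35 ± 0.88) and RRN5 -0.30, -0.40, 0.22 and -0.19 (mean -0.17 ± 0.27).

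Other genes of the pathway, which carry other symbols, gave the same picture of small means in turned signs. No gene of these lists passed limma's adjustment in either reading, and 0 reached an unadjusted p below 0.05 in turned signs (background 1.88%). As deposited 3 of the 31 did (background 11.7%), named after their values were seen: LEO1 at -0.75 ± 0.56, RTT103 at 0.63 ± 0.30 and NUT1 at 0.73 ± 0.29, each with 1 sign on all arrays. The other 7 measured Mediator genes had a median of 0.11, from NUT1 at -0.21 ± 0.86 to RGR1, the scaffold subunit Med14, at 0.34 ± 0.63. SOH1, the Mediator subunit Med31, was named after its values were seen, since it was positive on all 4 arrays at 0.70, 0.11, 0.21 and 0.34. Of all features 3.4% were positive on all 4 arrays in turned signs, and the deposited mean of SOH1 was -0.11 ± 0.45. For 14 of 19 elongation factor genes the median was 0.13, from ELF1 at -0.34 ± 0.62 to LEO1, of the Paf1 complex, at 0.45 ± 0.89. For 6 of 14 genes of the SAGA coactivator it was 0.12, from SGF11 at -0.06 ± 0.35 to the acetyltransferase gene GCN5 at 0.48 ± 2.15. GCN5 read 3.55 on array 2, and its mean was 0.00 after print blocks were centred. The polymerase I factor genes UAF30 and HMO1 averaged -0.30 ± 0.28 and 0.01 ± 0.38. KIN28, the kinase of TFIIH, averaged -0.10 and the TBP regulator gene BUR6 -0.09. As deposited the medians were -0.11 for the other Mediator genes, -0.03 for elongation factors and 0.09 for SAGA. The deposited means of UAF30, HMO1 and BUR6 were -0.12 ± 0.42, -0.23 ± 0.28 and -0.04 ± 0.79. That of KIN28 was -0.30 ± 0.16, with every array negative, where 12.3% of all features were.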

How the data were processed

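The deposited values, 1 per probe and array, were read as log2 ratios normalized by the authors with limma 3.2.1, per the submitters' processing notes. Base 2 was assumed because limma uses it; neither base, numerator, background correction nor type of normalization is given. The 4 columns were matched to samples by name, with 0 left unused. Of 6216 probes, 3344 had 1 platform symbol, 387 several and 2485 none here, and 3343 of the symbols were found in the R64 gene table, the source of gene lengths. No sequence was used here, so a planned search of promoters was not made.

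Probes of a gene were averaged. Each feature's mean over 4 arrays was tested against 0, two-sided, by limma 3.58.1 under R 4.3.3 (functions lmFit, eBayes), with Benjamini-Hochberg adjustment over all features at 0.05. The test was first tried on simulated independent values with smaller spreads than the real arrays. That trial does not show how the test does on data like these. Turned signs reverse the arrays that had CadA in Cy5. The genes, complexes and related lists were chosen with earlier results of these data known. Values on every array are given for 34 genes: the measured ones of the 2 largest subunits of each polymerase, the highest and lowest of each complex of 3 or more, those with 1 sign on all arrays and those with several probes. Other genes are named as examples chosen after their values were seen. The number of arrays limits the precision. Alternatives were the deposited signs, leaving out each array, block centring, scaling, array weights, a dye coefficient, averaged pairs, the first probe and ordinary statistics.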

Additional observations from a re-analysis of the deposited data

Results flagged for a closer look

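In turned signs 1 array stood far from the other 3 for 4 of the 57 genes, or 7.02%, by the gap in Dixon's test. Chance flags about 1 in 20 such sets, and 5.84% of all features met the same criterion. MED8, a head subunit of Mediator, read 1.39 on array 2 and between -0.19 and -0.02 on the others, and its mean of 0.25 was -0.13 without that array. RPC17, a stalk subunit of polymerase III, read 1.37 on array 1 and between -0.21 and -0.07 elsewhere, with means of 0.23 and -0.14. RPO21 read -1.06 on array 1 and between 0.31 and 0.55 elsewhere, with means of 0.04 and 0.41. TOA1, the large subunit of TFIIA, read 0.42 on array 4 and between -0.38 and -0.27 elsewhere, with means of -0.13 and -0.32.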

How the results depend on the processing

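The count of 0 passing genes among the 57 stayed at 0 under each of the 12 alternatives. Over all features the count of 0 became 1 without array 1, 4 with array weights and 2 with opposite dyes averaged, and leaving out 1 array gave between 0 and 1. Of the 10 medians compared, 9 moved by less than the SD of their array medians, although 8 of the 10 changed sign under at least 1 alternative. The TFIIH median of 0.13 was -0.11 as deposited and -0.03 after block centring, and it lay between 0.06 and 0.30 without 1 array; the cause was not tested. The 17 genes with 1 sign on all arrays as deposited became between 22 and 27 without 1 array, where fewer arrays have to share a sign. These alternatives were chosen after the data were seen, and no share of all features is given beside their counts. Leaving out 1 array changed the sign of the mean for 40 of 57 genes in turned signs and 16 as deposited. It moved the mean by over 1.5 times or changed its sign for 57 and 46 of them. No share of all features is given beside these counts. The median size of the means was 0.14 in turned signs and 0.35 as deposited, against 0.17 and 0.28 over all features. A mean nearer to 0 changes sign more easily, so the counts do not show that 1 reading is steadier for these genes. Of the 17, whose sign cannot change this way, 7 moved by over 1.5 times: MED7, RPA14, RPB11, RPC34, RRN10, TAF5 and TFG2. No replicate block could be fitted because the arrays form 1 group.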
